A study of Mus musculus with 8 samples.

Results

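The H2 genes are the mouse major histocompatibility genes. They were taken as the protein-coding genes of the GENCODE M21 annotation of mm10 whose symbol starts with H2-, which gave 34 of 21951 protein-coding genes. All 34 lie on chromosome 17, between 33996017 and 37483552. Of these, 24 encode class I molecules (*H2-K1*, *H2-D1* and the H2-Q, H2-T and H2-M genes), 9 encode class II chains (*H2-Aa*, *H2-Ab1*, *H2-Eb1*, *H2-Eb2* and the H2-DM and H2-O genes), and *H2-Ke6* encodes a hydroxysteroid dehydrogenase and carries the prefix for its position alone.

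The peaks come from ChIC-Seq, in which an antibody directs micrococcal nuclease to the chromatin occupied by its antigen. PBRM1, a subunit of the PBAF form of the SWI/SNF chromatin remodeling complex, and BRG1, the ATPase of that complex, were assayed in 3 replicates each. Every library was made from primary stromal cells of the uterus, taken from WT mice at D4 of pregnancy (pseudopregnant females of 8 to 12 weeks by the preparation protocol), cultured for some hours after 5 to 10 uterine horns were digested, so that a replicate holds cells of pooled tissue. The strain of the WT mice is not given in the sources used here, and the mm10 reference is C57BL/6J, which matters at genes as polymorphic as these. The 2 IgG libraries were not analysed here. Peaks were called in each replicate and in the pooled fragments of each antibody, which gave 8 lists, 6 of them of replicates.

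Class I molecules present peptides from inside the cell to CD8+ T cells and are made by nearly all nucleated cells. Their heavy chains need β2-microglobulin and a peptide that TAP carries into the endoplasmic reticulum. The non-classical class I molecules of the Q, T and M regions have narrower duties, such as binding natural killer cell receptors. Class II molecules present peptides taken up from outside to CD4+ T cells and are made mainly by professional antigen-presenting cells. In the uterus these molecules take part in how maternal immune cells meet the embryo, and stromal cells are not professional presenting cells. The promoters of both classes carry a conserved module with an X box, bound by RFX, and a Y box, bound by NF-Y. Class I genes are switched by NLRC5 and class II genes by CIITA, and many class I promoters also hold a kappa B site and an interferon response element.

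The starts of 6 genes are shown because they carry the contrast described below, which is that genes that share the letters of the Y box differed in peaks. *H2-K1*, *H2-D1* and *H2-Q4* had a peak in every list, *H2-Aa* had 1 in some lists, *H2-Eb1* had none at its start and *H2-M10.5* had none anywhere. Each line runs 5′ to 3′ on the strand of the gene from 250 bases before the RefSeq start to 30 bases from it on (RefSeq, GRCm38.p6). Capitals mark matches on either strand to the kappa B letters GGGNNTTCC, the X box letters CCNNGNAAC and the Y box letters GATTGG. Variants of these letters are not marked.
*H2-K1* (chr17:34000304-34000583, minus strand): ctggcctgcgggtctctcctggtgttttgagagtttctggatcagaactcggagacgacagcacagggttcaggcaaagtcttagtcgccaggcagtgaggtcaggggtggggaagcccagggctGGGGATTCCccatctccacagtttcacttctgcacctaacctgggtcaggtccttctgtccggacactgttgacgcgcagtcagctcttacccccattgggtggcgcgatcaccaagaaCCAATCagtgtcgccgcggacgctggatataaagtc
*H2-D1* (chr17:35262844-35263123, plus strand): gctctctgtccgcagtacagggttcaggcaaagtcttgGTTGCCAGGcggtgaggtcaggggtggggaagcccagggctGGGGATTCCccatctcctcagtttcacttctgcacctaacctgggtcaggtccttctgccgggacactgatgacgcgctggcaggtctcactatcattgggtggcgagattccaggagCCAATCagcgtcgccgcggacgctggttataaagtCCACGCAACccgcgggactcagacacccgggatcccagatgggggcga
*H2-Q4* (chr17:35379367-35379646, plus strand): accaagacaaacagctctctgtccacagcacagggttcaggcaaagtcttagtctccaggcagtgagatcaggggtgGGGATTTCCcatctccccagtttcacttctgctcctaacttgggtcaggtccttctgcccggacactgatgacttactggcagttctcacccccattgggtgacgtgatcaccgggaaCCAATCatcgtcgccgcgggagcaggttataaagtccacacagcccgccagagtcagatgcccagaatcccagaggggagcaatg
*H2-M10.5* (chr17:36772660-36772939, plus strand): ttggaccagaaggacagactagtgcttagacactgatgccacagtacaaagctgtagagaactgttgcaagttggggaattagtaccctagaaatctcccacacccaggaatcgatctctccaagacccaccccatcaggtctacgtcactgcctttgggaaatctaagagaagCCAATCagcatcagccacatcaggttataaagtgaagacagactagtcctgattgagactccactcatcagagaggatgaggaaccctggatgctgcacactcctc
*H2-Aa* (chr17:34287794-34288073, minus strand): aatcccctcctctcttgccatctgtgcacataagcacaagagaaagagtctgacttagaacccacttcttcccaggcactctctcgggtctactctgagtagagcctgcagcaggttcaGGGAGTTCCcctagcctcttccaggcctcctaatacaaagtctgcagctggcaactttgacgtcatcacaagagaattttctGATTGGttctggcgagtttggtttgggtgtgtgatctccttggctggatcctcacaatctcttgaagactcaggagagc
*H2-Eb1* (chr17:34305617-34305896, plus strand): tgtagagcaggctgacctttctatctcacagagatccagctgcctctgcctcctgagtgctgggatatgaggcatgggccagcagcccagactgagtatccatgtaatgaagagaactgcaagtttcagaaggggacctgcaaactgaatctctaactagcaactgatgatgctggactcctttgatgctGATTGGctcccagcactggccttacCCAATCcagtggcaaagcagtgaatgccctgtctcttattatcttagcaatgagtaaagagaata

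A gene was counted as having a promoter peak in a list where any base of a peak lay within 2000 bp of one of its annotated starts. PBRM1 peaks were found at the promoters of 15, 12 and 12 of the 34 H2 genes in its replicates, where 60.0%, 60.7% and 55.3% of all protein-coding genes had one. BRG1 peaks were found at 17, 21 and 18 H2 genes, beside 66.1%, 65.1% and 65.0% of all genes. The pooled lists reached 20 H2 genes for PBRM1 (68.7% of all genes) and 22 for BRG1 (72.1% of all genes). The percentage of H2 genes with a peak lay between 35.3% and 61.8% in the replicate lists and below that of all genes in each of the 8 lists. Every BRG1 replicate reached more H2 genes than every PBRM1 replicate, and the means were 18.7 ± 2.08 (SD, n = 3) and 13.0 ± 1.73 (SD, n = 3). The difference, PBRM1 minus BRG1, was −5.67 genes (p = 0.1 in an exact, two-sided permutation test, which 3 against 3 libraries cannot go below). The BRG1 replicates also held more peaks in all (36656 to 40610, against 21912 to 26363), and with the 20000 strongest peaks of each list the difference fell to −1.33 genes (exact permutation p = 0.7).

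In all, 9 genes had a promoter peak in the 6 replicate lists, namely *H2-K1*, *H2-D1*, *H2-Q4*, *H2-T23* and *H2-M3* of class I, *H2-Ab1*, *H2-Eb1* and *H2-DMa* of class II, and *H2-Ke6*. That is 26.5% of the H2 genes, beside 51.9% of all protein-coding genes. All 3 PBRM1 replicates shared peaks at the same 9 genes (52.2% of all genes), and all 3 BRG1 replicates at 16 genes (61.4% of all genes). The 7 genes added by BRG1 were all of class I (*H2-Q1*, *H2-Q6*, *H2-Q7*, *H2-Q10*, *H2-T24*, *H2-T22* and *H2-M5*). At the other end, 10 genes had no promoter peak in any of the 8 lists (29.4%, beside 26.4% of all genes), and these too were all of class I. They were *H2-M10.1* to *H2-M10.6*, *H2-M11*, *H2-M9*, *H2-M1* and *H2-M2*. In the plot of fold enrichment by gene and list, all but *H2-M2* form a gap between the T genes and *H2-M5*, and *H2-M2* is the last row.

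**Figure D1:**
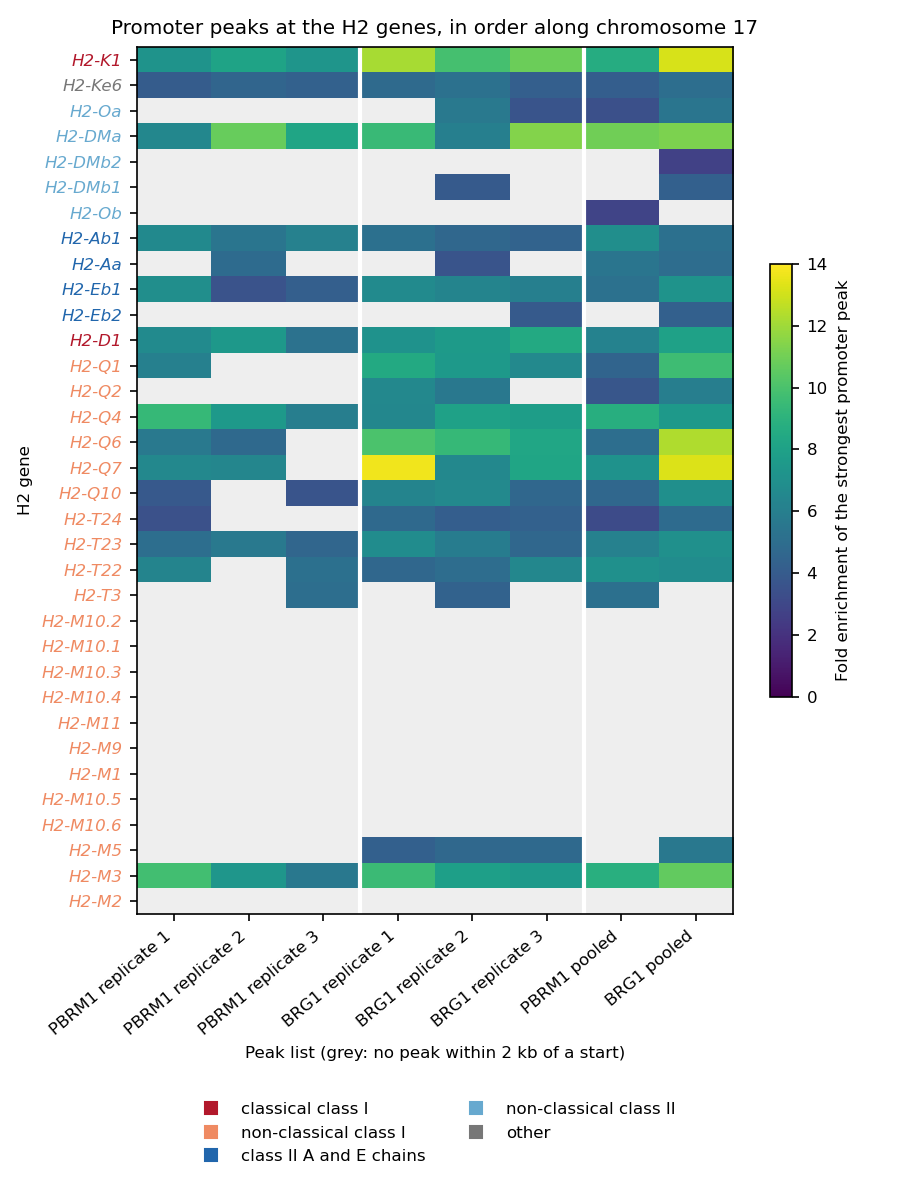
Fold enrichment of the strongest promoter peak (color, linear scale) for each of the 34 H2 genes (rows, in order along chromosome 17, symbols colored by class) in the 8 peak lists (columns). Grey cells have no peak within 2 kb of an annotated start. There are 9 rows filled in all 8 lists and 10 empty rows, and the H2-Q and H2-T rows are filled more often under BRG1 than under PBRM1.

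The classical class I genes had peaks at their starts in every list. *H2-K1* encodes the K heavy chain. The fold enrichment over the local background at its start was 7.18, 8.12 and 7.31 in the PBRM1 replicates and 12.1, 9.88 and 10.8 in the BRG1 replicates. All BRG1 values lay above all PBRM1 values, although the enrichments carry no common scale across libraries. Ranked by q-value within its own list, the *H2-K1* peak stood at percentiles 60.0, 75.6 and 79.4 for PBRM1 and 91.5, 82.8 and 85.7 for BRG1, where 100 is the strongest peak. The BRG1 summits lay at a RefSeq start (34000333 or 34000347) or up to 5 bp upstream of it, and the PBRM1 summits 56 and 24 bp upstream in replicates 2 and 3 and 183 bp downstream in replicate 1. *H2-D1* encodes the D heavy chain. Its peak had fold enrichments of 6.69, 7.45 and 5.30 with PBRM1 and 7.13, 7.61 and 8.53 with BRG1, at percentiles from 81.3 to 94.7, and the groups overlapped. The *H2-D1* summits fell between 192 bp upstream and 2 bp downstream of the RefSeq start at 35263094, which is the stretch printed above.

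Among the Q genes, *H2-Q4* had peaks in every list, with fold enrichments of 9.40, 7.50 and 6.01 for PBRM1 and 6.47, 8.01 and 7.78 for BRG1. The groups overlapped, and the highest value was that of PBRM1 replicate 1. A peak counted for *H2-Q4* also lay within 2 kb of a start of *Gm11131*. *H2-Q6* and *H2-Q7*, which encode the Qa-2 antigen, had peaks in PBRM1 replicates 1 and 2 (fold enrichments of 5.64 and 4.80 at *H2-Q6*, and 6.54 and 6.42 at *H2-Q7*) but not in replicate 3. In the BRG1 replicates *H2-Q6* reached 9.22 ± 0.885 (SD, n = 3) and *H2-Q7* 9.49 ± 3.76 (SD, n = 3). Both genes repeat much of each other. Of the 50-base words within 2 kb of their starts, 43.3% at *H2-Q6* and 37.0% at *H2-Q7* occur once in the genome, against a median of 97.1% over the 173 protein-coding genes of the interval. The authors removed read pairs of low mapping quality, and what that did to the peaks of these genes was not tested. *H2-Q10*, which encodes a secreted class I molecule of the liver, had weak PBRM1 peaks in replicates 1 and 3 (3.93 and 3.61) and BRG1 peaks of 5.87 ± 1.03 (SD, n = 3). *H2-Q1* had peaks in all BRG1 replicates (7.55 ± 0.983, SD, n = 3) and in PBRM1 replicate 1 (6.12). *H2-Q2* had peaks in BRG1 replicates 1 and 2 (6.56 and 5.62) and in neither BRG1 replicate 3 nor any PBRM1 replicate.

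Among the T genes, *H2-T23* was the member with peaks throughout. It encodes Qa-1, which shows leader peptides of other class I molecules to natural killer cells. Its fold enrichments were 5.07, 5.67 and 4.60 for PBRM1 and 6.79, 5.90 and 4.68 for BRG1, with overlap, and its summits fell in the first intron, 164 bp or more from the RefSeq start. *H2-T22*, a ligand of γδ T cells, had peaks in all lists but PBRM1 replicate 2. Its BRG1 fold enrichment was 5.40 ± 0.952 (SD, n = 3), and its peaks also lay within 2 kb of a start of *Gm6034*. Of the words around *H2-T23* and *H2-T22*, 60.2% and 66.7% are unique. *H2-T24* had weak peaks 158 to 195 bp upstream of its start in the BRG1 replicates (4.42 ± 0.313, SD, n = 3) and in PBRM1 replicate 1 (3.49). *H2-T3*, which encodes the thymus leukemia antigen, had 1 in PBRM1 replicate 3 (5.07) and 1 in BRG1 replicate 2 (4.38).

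Of the 12 H2-M genes, *H2-M3* alone had peaks in all 8 lists. *H2-M3* presents formylated peptides of bacteria. Its fold enrichments were 9.79, 7.34 and 5.59 for PBRM1 and 9.53, 7.93 and 7.50 for BRG1, so that the groups overlapped, and every summit fell within 193 bp downstream of the RefSeq start. *H2-M5* had BRG1 peaks in all 3 replicates (4.60 ± 0.290, SD, n = 3) and no PBRM1 peak. Those peaks lay in exon 3, with summits 809 to 879 bp from the RefSeq start. The 9 genes *H2-M1*, *H2-M9*, *H2-M11* and *H2-M10.1* to *H2-M10.6*, which are known from sensory neurons of the vomeronasal organ, had none, nor did *H2-M2*. None of these 10 genes had a peak anywhere in its body in the replicate lists. Their promoter windows held 77.9% to 100.0% unique words. Those of *H2-Q6*, *H2-Q7*, *H2-Q10* (76.2%), *H2-T22* and *H2-T23*, which did have peaks, held fewer. Whether repeated sequence or the strain of the mice bears on the missing peaks was not tested.

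Among the A and E chains of class II, *H2-Aa*, for the A α chain, had weak peaks near its start in PBRM1 replicate 2 (4.89) and BRG1 replicate 2 (3.61). *H2-Ab1*, for the A β chain, had peaks in all lists, with fold enrichments of 6.63, 5.45 and 6.15 for PBRM1 and 5.19, 4.65 and 4.46 for BRG1, and all PBRM1 values lay above all BRG1 values. The strongest peak did not sit in the same place. The PBRM1 summits lay 63 to 112 bp downstream of the RefSeq start at 34263227, in exon 1. The strongest BRG1 peak had its summit 1811 and 1932 bp from that start in replicates 1 and 3, in intron 2 of a peak that also covered part of exon 2, and 370 bp from it in replicate 2. PBRM1 replicate 1 likewise held a weaker second peak over exon 2 (5.02). BRG1 replicate 3 and the pooled BRG1 list also held a weaker peak at the start, with fold enrichments of 4.31 and 4.58. *H2-Eb1*, for the E β chain, had no peak within 2 kb of its RefSeq start (34305867) in any list. It was counted through an internal GENCODE start in its gene body, where the summits lay 3660 to 4081 bp downstream, beside exon 2, with fold enrichments of 6.93, 3.60 and 4.23 for PBRM1 and 6.67, 6.33 and 6.02 for BRG1. That peak also lies within 2 kb of a start of *Gm20513*. *H2-Eb2* had a peak in BRG1 replicate 3 (3.98).

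Of the genes that load class II molecules, *H2-DMa* had the highest-ranked peak of the H2 genes in 5 of the 6 replicate lists, the exception being BRG1 replicate 1, where *H2-D1* and *H2-K1* ranked above it. H2-DM exchanges the peptides of class II molecules and H2-O restrains it. The strongest *H2-DMa* peak stood at percentiles 90.1 to 97.8 of the replicate lists. In PBRM1 replicates 2 and 3 and BRG1 replicates 1 and 3 it was the peak in exon 2, with fold enrichments of 10.7 and 8.20 and of 9.48 and 11.4. That peak lay over 9 kb from the RefSeq starts of *H2-DMa* and was counted through another GENCODE start of the gene. It also lay within 2 kb of a start of *Gm20493*. In PBRM1 replicate 1 and BRG1 replicate 2 a peak with its summit at −3101 and −3428 bp from the RefSeq start ranked higher (6.47 and 6.03). It lies within 2 kb of starts of *Brd2*, the neighboring bromodomain gene, so that the gene it belongs to cannot be told apart. In each of the 8 lists *H2-DMa* had a peak within 2 kb of a RefSeq start, though not always its strongest. *H2-DMb1* had a peak in BRG1 replicate 2 (3.97), *H2-DMb2* only in the pooled BRG1 list (2.73) and *H2-Ob* only in the pooled PBRM1 list (2.86). *H2-Oa* had intronic peaks in BRG1 replicates 2 and 3 (5.64 and 3.64). A peak counted for *H2-Oa* also lay within 2 kb of a start of *BC051537*. *H2-Ke6*, the hydroxysteroid dehydrogenase gene, had a peak at its own start in every list (fold enrichments of 3.24 to 4.59 in the replicates) and a second beyond the end of its RefSeq mRNA, within 2 kb of a start of *Ring1*.

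**Figure D2:**
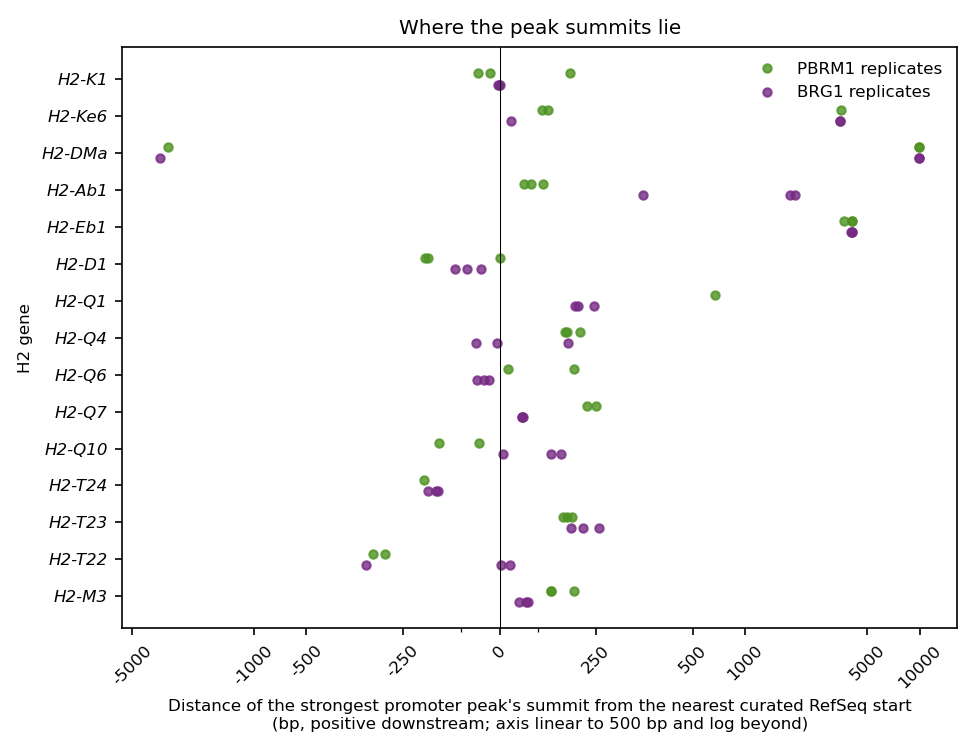
Distance in bp of the summit of the strongest promoter peak from the nearest curated RefSeq start (x axis, linear to 500 bp and logarithmic beyond, positive downstream) for the 15 H2 genes with a promoter peak in 4 or more replicate lists (y axis). Each point is 1 replicate of PBRM1 (green) or BRG1 (purple). The summits of the class I genes stay within 1000 bp, those of H2-Eb1 lie 3660 to 4081 bp downstream, and those of H2-Ab1 part by antibody, with PBRM1 at 63 to 112 bp and BRG1 at 370 to 1932 bp.

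The classes were compared within each list. Class I genes had a promoter peak in 11, 7 and 8 of 24 cases with PBRM1 and in 13, 14 and 12 with BRG1. Class II genes had one in 3, 4 and 3 of 9 and in 3, 6 and 5 of 9. The difference in percentage, class I minus class II, averaged 0.69 percentage points over the 6 replicate lists with a spread of 13.6 (SD, n = 6), was positive in 2 lists, 0 in 1 and negative in 3, and did not pass an exact sign-flip test (two-sided p = 1). The class I total joins unlike genes. Of the 12 class I genes outside the H2-M group, 10, 6 and 7 had PBRM1 peaks and 11, 12 and 10 had BRG1 peaks. For PBRM1 that is 83.3%, 50.0% and 58.3%, beside 60.0%, 60.7% and 55.3% of all protein-coding genes. For BRG1 it is 91.7%, 100% and 83.3%, beside 66.1%, 65.1% and 65.0%. Of these 12 genes, 4 (33.3%) had a peak in all 6 replicate lists, beside 51.9% of all genes. Without the 12 H2-M genes the difference was 33.3 percentage points in favor of class I. This is a description with no test, since 10 of the 12 genes left out had no peak in any list and no class II gene was left out. With the starts of curated RefSeq mRNAs, at which *H2-Eb1* has no peak, it was 11.8 points over all class I genes (p = 0.09375 by the same exact test). In the pooled lists, which reach weaker peaks, class II stood at 66.7% and 88.9% and class I at 54.2% in both, a mean difference of −23.6 points.

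**Figure D3:**
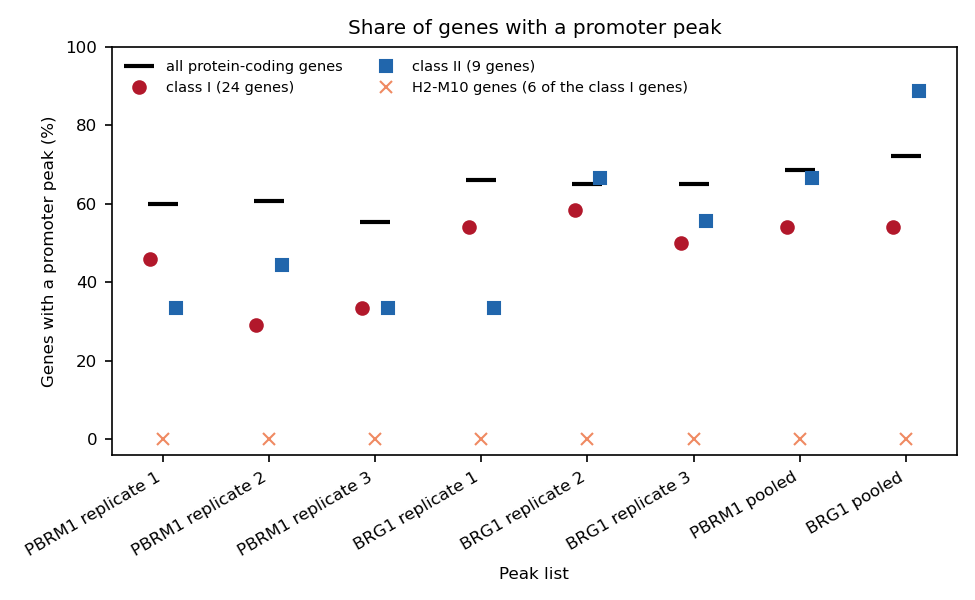
Percentage of genes with a promoter peak (y axis) in each of the 8 lists (x axis) for all protein-coding genes (black bars), the 24 class I genes (red circles), the 9 class II genes (blue squares) and the 6 H2-M10 genes (orange crosses). The H2-M10 genes are at 0 throughout, class I lies below all genes in each list, and the order of class I and class II changes between lists.

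At the 9 genes with a peak in all 6 replicate lists, the percentile by q-value averaged 68.5 ± 0.991 (SD, n = 3) in the PBRM1 lists and 73.8 ± 2.99 (SD, n = 3) in the BRG1 lists. Every BRG1 replicate stood above every PBRM1 replicate, with a difference of −5.27 percentile points for PBRM1 minus BRG1 (exact permutation p = 0.1). With the 20000 strongest peaks of each list the difference was −4.23 over the 6 genes that still had a peak in every replicate (p = 0.4 by the same exact permutation). The percentiles there were still those of the full lists, and only the set of genes changed. That value therefore does not even out the greater length of the BRG1 lists.

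Along the chromosome, the H2 genes with and without peaks lay in blocks. The interval from the first to the last H2 gene spans 3.49 Mb and held 32.7 to 34.1 PBRM1 peaks and 46.5 to 46.7 BRG1 peaks per Mb, where the genome held 8.04 to 9.67 and 13.4 to 14.9. Chromosome 17 as a whole held 10.7 to 13.3 and 18.2 to 19.9. The interval is rich in genes, with 34 H2 genes and 139 others of the 21951 protein-coding genes. Peaks per Mb, here and for the segments below, were not set against the number of genes. Of 10000 peaks in a list, 49.7 ± 3.91 (SD, n = 3) lay in the interval for PBRM1 and 42.5 ± 2.10 (SD, n = 3) for BRG1, a difference of 7.18 (two-sided exact permutation p = 0.1). This turned to −3.50 with the 20000 strongest peaks of each list (p = 0.1 by the same exact permutation test). The class II segment (0.249 Mb) held 44.2 to 56.2 PBRM1 peaks and 64.2 to 76.3 BRG1 peaks per Mb, and all 5 other protein-coding genes there had a promoter peak in every replicate list. The segment of the D and Q genes (0.212 Mb) held 23.6 to 37.8 and 37.8 to 51.9, and that of the T genes (0.185 Mb) 32.5 to 37.9 and 59.6.

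The segment from *H2-M10.2* to *H2-M5* (0.705 Mb) held 7.09 to 8.51 PBRM1 peaks and 12.8 to 15.6 BRG1 peaks per Mb, which is near the density of the whole genome. Its 10 other protein-coding genes had promoter peaks in 5 to 8 cases in the replicate lists, so the segment was not without peaks as a whole, and *H2-M5* was the single H2 gene in it with any. The last segment, from *H2-M3* to *H2-M2* (0.213 Mb), held exactly 1 peak in each of the 8 lists, the one at *H2-M3*. Its 10 other protein-coding genes are all olfactory receptor entries (*Olfr99* to *Olfr109*). None of them had a promoter peak in any list, beside 26.4% of all protein-coding genes. Over the whole interval, the 139 other protein-coding genes had a promoter peak in 54.7% to 57.6% of cases with PBRM1 and in 61.2% to 65.5% with BRG1, and 65 of them had one in all 6 replicate lists.

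**Figure D4:**
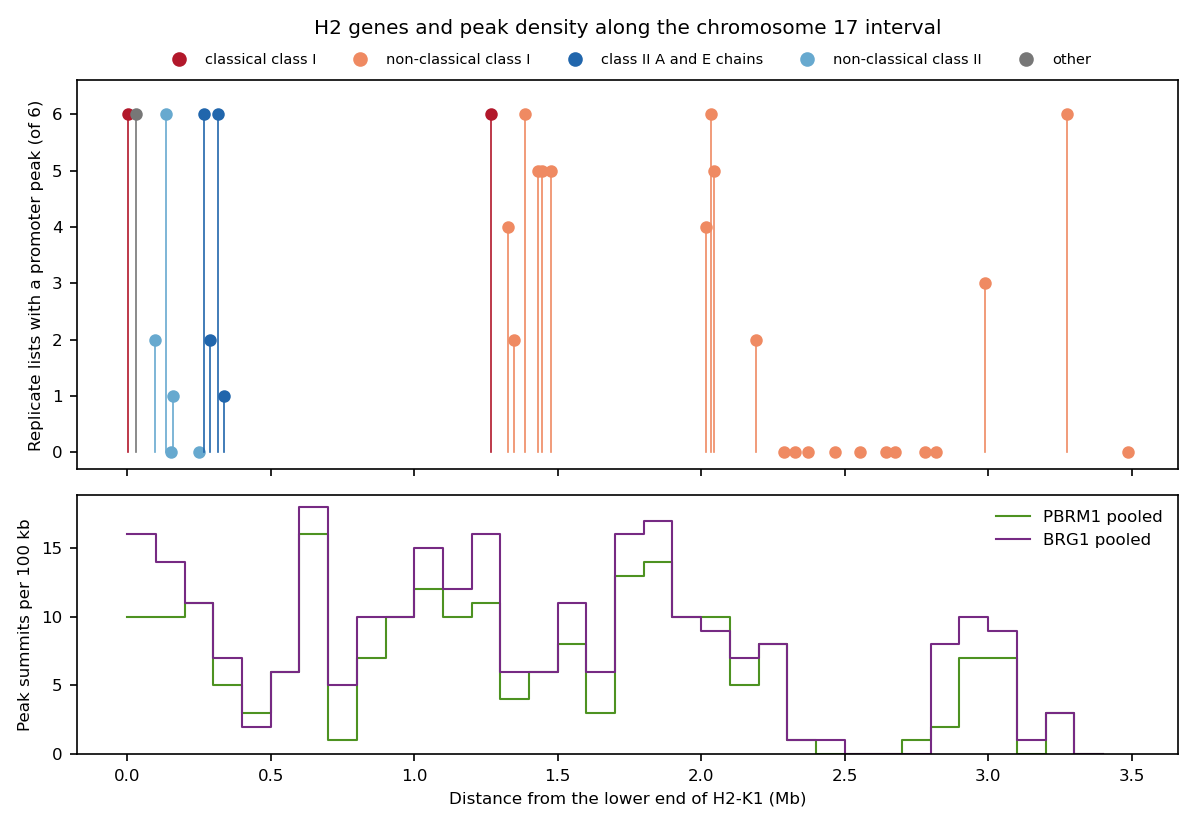
Upper panel, number of replicate lists (of 6) with a promoter peak at each H2 gene (y axis) against its distance from the lower end of H2-K1 along chromosome 17 (x axis, Mb), colored by class. Lower panel, peak summits per 100 kb in the pooled PBRM1 and BRG1 lists. The H2-M genes at 0 lists lie at about 2.3 to 2.8 Mb and at the far end, and H2-M3 stands alone among them with 6 lists.

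The sequence at the starts was read from RefSeq promoters of 300 bases, which were at hand for 31 of the 34 genes and not for *H2-Ab1*, *H2-Q1* and *H2-T24*. The letters of the Y box were found in at least 1 promoter of 25 of the 31 genes, in either direction, and in 16.1% of all 32851 promoters counted singly. They were found for all 8 class II genes and for 16 of 22 class I genes, among them the 9 vomeronasal H2-M genes that had no peak, as the *H2-M10.5* sequence above shows. *H2-DMa* has 2 promoters, and its Y box lies at the start at 34125518 and not at that at 34122832. The kappa B letters were found in 8 H2 genes (5.82% of all promoters), which were *H2-K1*, *H2-D1*, *H2-Q4*, *H2-Q6*, *H2-Q7*, *H2-M2*, *H2-Aa* and *H2-Oa*. The X box letters were found in 8 (15.1% of all promoters) and the interferon response letters TTCNNTTTC in 2, *H2-T23* and *H2-T22* (8.56% of all promoters). These are matches of exact letters and not sites shown to be bound. A gene without a match can still hold a variant of the element. A match also need not be part of the conserved module. In *H2-D1* the X box letters lay at −212 and −18 from the start and the Y box letters at −53.

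The CpG content of the same promoters is given as a description, with no test. The 10 class I genes without a peak in any list held 0 to 5 CpG dinucleotides (median 2), and the 5 class I genes with a peak in all replicate lists held 5 to 19 (median 9). The 11 genes of either class with a peak in 1 to 5 replicate lists held 1 to 19 (median 4). The groups overlapped, since *H2-T23* with 6 lists and *H2-M10.4* with none both held 5, and *H2-Q10* with 5 lists and *H2-D1* with 6 both held 19. The median of all promoters was 7. Of the 2 *H2-DMa* promoters, the one at 34122832 held 29 CpG and the one at 34125518 held 0. The other 7 class II genes held 0 to 3.

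The second exon of the RefSeq mRNA encodes the outer, peptide-facing domain in most class I heavy chains and class II β chains. It does not in *H2-Ke6* or in *H2-DMa*, whose exon 2 is annotated as UTR, and that of *H2-T22* is 119 bp long where most class I genes have 270 bp. Exon 2 held 3.81 to 13.3 CpG per 100 bp in the 9 genes with peaks in all replicate lists (median 10.0), the lowest being *H2-DMa* and the highest *H2-Ke6*. In the 10 genes with none it held 0.37 to 2.96 (median 2.04). The densities were 10.4 in *H2-K1* and *H2-D1*, 9.32 in *H2-Q4*, 10.0 in *H2-T23*, 11.0 in *H2-Ab1* and 8.89 in *H2-Eb1*. In *H2-M10.5* the value was 2.96. *H2-Q2* (10.0) had peaks in 2 replicate lists, and *H2-T22* (2.52) and *H2-T24* (2.69) had peaks in 5 and 4. The peaks of all 9 genes overlapped exon 2 in at least 1 replicate, and in *H2-Q4*, *H2-T23*, *H2-M3*, *H2-Eb1* and *H2-DMa* they did so in all 6. Exon 3 was overlapped in no gene in all 6 replicates and in 6 genes in any. It held 9.06 CpG per 100 bp in *H2-K1* and *H2-Q10*, 8.70 in *H2-D1*, 7.97 in *H2-Q7* and 7.61 in *H2-Q6*, and none of these had a peak over it in a replicate list. *H2-Q4*, the densest at 9.42, and *H2-T23*, at 6.16, each had one in 3 replicate lists. Exon 4, with a median of 0.36 CpG per 100 bp over the 34 genes, was overlapped in no replicate list. In the pooled lists it was overlapped in *H2-Ke6* alone. These values are a description over related genes, which share ancestry and are not independent.

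**Figure D5:**
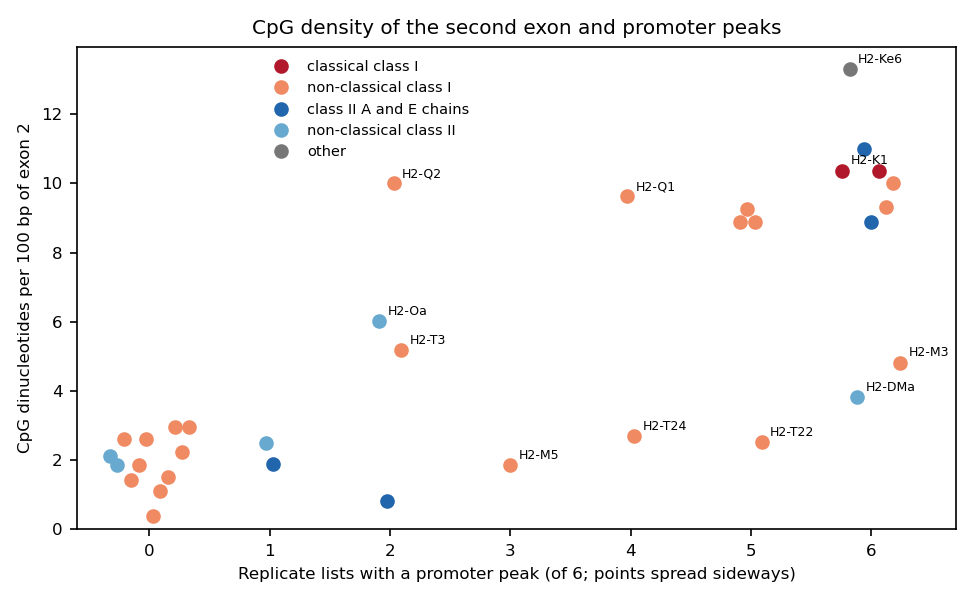
CpG dinucleotides per 100 bp of the second exon of the RefSeq mRNA (y axis) against the number of replicate lists with a promoter peak (x axis, 0 to 6, points spread sideways) for the 34 H2 genes, colored by class. The 12 genes at 0 lists all lie below 3, and 7 of the 9 genes at 6 lists lie above 8, the others being H2-M3 and H2-DMa.

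In *H2-Eb1* the start and the peak lie apart. Its start, printed above, holds 0 CpG in the 300-base promoter and no peak. The 300 bases around the pooled BRG1 summit, from the end of exon 2 into intron 2, hold 14 CpG. Not every gene went this way. The summit window held fewer CpG than the annotated 5′ end in *H2-DMa* (14 against 33), *H2-Oa* (2 against 5) and *H2-T24* (4 against 7). It also held fewer in *H2-DMb1*, *H2-Eb2*, *H2-Q4* and *H2-Q6*. In the other genes with a pooled BRG1 peak it held as many or more. The bases of *H2-Eb1* are shown here on the strand of the gene from the mm10 reference, with each CpG in capitals.
*H2-Eb1* (chr17:34309794-34310093, plus strand): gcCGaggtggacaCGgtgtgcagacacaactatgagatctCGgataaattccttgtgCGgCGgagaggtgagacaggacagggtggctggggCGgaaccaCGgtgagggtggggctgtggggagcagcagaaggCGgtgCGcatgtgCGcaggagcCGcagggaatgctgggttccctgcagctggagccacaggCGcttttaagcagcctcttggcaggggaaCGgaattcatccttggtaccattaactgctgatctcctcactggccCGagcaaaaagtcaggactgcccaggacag

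The genes that serve class I presentation had peaks throughout. All 14 genes listed for peptide loading and the proteasome had a promoter peak in all 6 replicate lists (51.9% of all protein-coding genes). Among them, *B2m*, for β2-microglobulin, had fold enrichments of 5.49 ± 1.20 (SD, n = 3) with PBRM1 and 6.26 ± 0.623 (SD, n = 3) with BRG1. *Tap1* and *Psmb9*, for a peptide transporter chain and an immunoproteasome subunit, lie head to head and shared 1 peak (6.67 ± 0.949 and 8.55 ± 1.11, SD, n = 3 each). *Calr*, for the chaperone calreticulin, had the highest values (11.3 ± 2.87 and 14.1 ± 0.603, SD, n = 3 each). The 14 listed regulators include the RFX and NF-Y genes, which serve both classes. All 14 also had peaks in all 6 lists, among them *Nlrc5*, the class I transactivator (6.74 ± 2.54 and 8.04 ± 0.926, SD, n = 3 each), *Rfx5*, *Nfya* and *Irf1*. Both chains of the interferon γ receptor did as well.

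The 3 genes of the class II pathway that the annotation holds as protein-coding had fewer. *Ciita*, the class II transactivator, had peaks in all BRG1 replicates (5.24 ± 0.749, SD, n = 3) and in PBRM1 replicate 2 (4.55). *Ctss*, for the protease cathepsin S, had peaks in BRG1 replicates 2 and 3 (4.64 and 3.52), and *Cd74*, for the invariant chain, had none in any list. Of 11 H2 pseudogenes, *H2-K2*, *H2-Bl* and *H2-T-ps* had peaks in all 6 replicate lists, beside 51.9% of all protein-coding genes. Another 3 had none in any list, beside 26.4% of all protein-coding genes. The *H2-K2* peak reached 6.78 ± 0.426 (SD, n = 3) with PBRM1 and 11.2 ± 2.28 (SD, n = 3) with BRG1.

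Markers of the cells were read in the same way, beside 51.9% of all protein-coding genes with a peak in all 6 replicate lists and 26.4% with none in the 8 lists. Of 9 stromal markers, 6 had a promoter peak in all 6 replicate lists and the others in 3 to 5. Of 11 leukocyte markers, 8 had no peak in any list, among them *Ptprc*, the common leukocyte antigen, and *Cd3e*, a chain of the T cell receptor complex. *Spi1* had peaks in 5 replicate lists, *Itgax* in both pooled lists and *Adgre1* in the pooled BRG1 list. Of 8 epithelial markers, 3 had a peak in each PBRM1 replicate and 4 to 8 in the BRG1 replicates, with none in all 6 lists. Of 6 endothelial markers, 1 (*Kdr*) had a peak in all 6 lists. In bulk cells, fewer cells with an occupied promoter and a lower occupancy per cell cannot be told apart. A peak shows occupancy or open chromatin and not expression, and a peak called without a control library can also mark sequence that collects fragments with any antibody. These cannot be told apart here.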

How the data were processed

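ChIC-Seq libraries of PBRM1 and BRG1 from D4 WT primary uterine stromal cells (3 replicates each, 50000 cells and 5 minutes of fixation by the labels) were read as peak lists. The authors trimmed the reads with cutadapt, used Bowtie2 for alignment to mm10, discarded duplicates and poorly mapped pairs, and ran MACS 2.2.7.1 to find peaks. Per the file headers, the q-value cutoff was 0.05 and no control file was used. Each deposited list gives a pileup signal, −log10 p- and q-values and a fold enrichment (ratio over the local background) per peak. Lists rested on 8868777 to 16505239 fragments per replicate and 37842839 to 38144108 when pooled. These values are not scaled between libraries. The deeper pooled lists reach weaker peaks.

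Promoter peaks were counted with GENCODE M21 and sequences came from RefSeq (GRCm38.p6, same chromosome coordinates). Steps ran in Python 3.11.15 (scipy 1.17.1, numpy 2.4.6, pandas 2.3.3) and were tested on simulated data. Groups were compared with exact permutation tests and classes with an exact sign-flip test over lists. Nothing in the labels says that the replicates came from separate animals, so p-values measure the spread between these libraries. Unique words are 50-base words found once on either strand of the mm10 chromosomes. Genes with a promoter peak in any list were named with their values, the rest once by class. The members, gene lists and tests were chosen with earlier results of these data known. RefSeq starts and the CpG and exon counts were added after the values were seen. Alternatives were other distances, stricter peaks, other starts, genes left out for shared peaks or repeated sequence, and each replicate left out.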

Additional observations from a re-analysis of the deposited data

How the results depend on the processing

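The number of H2 genes with a promoter peak stayed lower for PBRM1 than for BRG1 under all 16 alternatives (−6.67 to −1.33 genes, p = 0.1 to 0.7 by exact permutation), as did the mean percentile (−9.69 to −2.50). The difference between class I and class II depended on the choices. It turned to −9.72 percentage points with a distance of 5000 bp, to −8.33 without genes under 80% unique words and to −23.6 in the pooled lists, and it ranged from −3.33 to 3.89 with each replicate left out, being negative without PBRM1 replicate 1 or BRG1 replicate 1. It was 6.48 points when peaks needed a −log10 q of 5 or more, with the smallest p that an exact sign-flip test over 6 lists can give. It was 33.3 points without the H2-M genes, a choice that takes 10 genes with no peak from class I alone. The number of genes with a peak in all 6 lists fell from 9 to 5 without the 6 genes that share a promoter peak with the start of another gene. It was 6 to 9 under the other choices. With each replicate left out, 9 to 11 genes had a peak in all the remaining lists. Peaks in the interval per 10000 turned from 7.18 to −3.50 with the 20000 strongest peaks per list (p = 0.1 by exact permutation in both). The cause of these changes was not tested. Same-numbered libraries showed no shared deviations over 9 genes (correlations of −0.16 to −0.01). So few genes cannot tell whether such libraries came from 1 preparation, and the labels do not say. With the replicate block the differences were −5.67 genes, −5.27 percentile points and 7.18 peaks, each with an exact sign-flip p of 0.25, the smallest that 3 pairs allow. With 3 replicates per antibody no difference between the antibodies could pass 0.05.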
